A study of Mus musculus with 12 samples.

Results

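The genes described here are 40 mouse genes of nucleotide synthesis and one-carbon metabolism, a hand-written set named gene by gene, with earlier results of these data known. All 40 were among the 15651 genes of the deposited expression table, and all 40 were tested in each comparison. RNA was sequenced from leukemic splenocytes of 6 moribund mice with acute myeloid leukemia (AML). The 3 *D/F* mice were Dnmt3a fl/fl, Flt3 ITD/ITD and Mx1-Cre, and the 3 *T/F* mice were Tet2 fl/fl, Flt3 ITD/ITD and Mx1-Cre, so both models carry the activating *Flt3* internal tandem duplication on both alleles. Cells enriched for c-Kit with CD117 beads were split and cultured for 6 hours with CCS1477 (inobrodib, a ligand of the bromodomains of the coactivators p300 and CBP) at 4 µM for *D/F* and 2 µM for *T/F*, or with an equal volume of DMSO, in medium with SCF, IL6 and IL3. This gave 4 groups of 3 libraries, in which each mouse is present once with DMSO and once with CCS1477. Dose and genotype cannot be told apart. The floxed alleles were deleted by spontaneous activity of the interferon-inducible Mx1-Cre, without induction, so deletion may be partial. Expression is given as TPM, the abundance of a gene's transcripts corrected for their length and scaled to a fixed total per library.

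Purines are built stepwise on phosphoribosyl pyrophosphate (PRPP), and pyrimidines as a free ring that is joined to PRPP afterwards. Folate carries single carbons, taken mostly from serine, to the purine ring and to thymidylate. Ribonucleotide reductase turns ribonucleotides into the deoxynucleotides of DNA, and salvage kinases and phosphoribosyltransferases recover nucleosides and bases. Proliferating blood cells use both supply lines, and antifolates, hydroxyurea, cytarabine and mercaptopurine act on them or are activated by them.

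At 6 hours CCS1477 lowered most genes that build purine and pyrimidine rings, in both genotypes. The fitted decreases of *Shmt1*, *Gart* and *Atic* were above 2-fold in each, narrowly for *Atic* in *T/F* (log2 fold change -1.02). Among genes of deoxynucleotide supply, *Rrm2b* rose and *Dtymk* fell in both genotypes, and *Rrm1*, *Rrm2*, *Tyms* and *Dck* rose in *T/F*. Calls rest on limma on log2(TPM + 1), with p-values adjusted over all genes tested and a threshold of 0.05. In *D/F*, 9 of the 40 genes were called lower and 1 higher, where 6.51% and 5.14% of all 15501 genes tested were called lower and higher. With the mouse as a block these counts were 21 and 3, against 18% and 21.4% of all genes. In *T/F*, 27 were called lower and 5 higher, against 17.6% and 25.8% of 15256 genes, and 28 and 5 with the block, against 22.9% and 31.2%. In 1 fit of all 4 groups, with 1 estimate of the spread for both genotypes, *T/F* had 13 called lower and 2 higher (10.5% and 13.8% of all genes). The *T/F* calls of *Rrm1*, *Rrm2* and *Dck* were among those lost in that fit. The 9 genes called lower in *D/F* were all called lower in *T/F*, and *Rrm2b* was called higher in both, where 5.91% and 4.78% of all genes were called lower and higher in both. The 40 genes had a median log2 fold change of -0.59 (*D/F*) and -0.47 (*T/F*), beside 0.06 and 0.07 over all genes tested.

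The second *D/F* mouse stood apart, in both of its libraries. Its libraries correlated with those of the other *D/F* mice at 0.947 to 0.958 over all genes, against 0.979 and 0.983 between those 2 mice. The summed TPM of 10 myeloid progenitor markers was 4300 in its DMSO library, below 8320 and 10600 in the others. That sum is carried by the granule genes *Mpo*, *Elane*, *Prtn3* and *Ctsg*, while *Kit* (148.8 TPM against 50.5 and 60.9), *Cd34* (446.6 against 110.3 and 138.1), *Flt3* and *Myb* of the same list were highest in it among the *D/F* DMSO libraries. The sum of the megakaryocyte markers was 201, above 33.2 and 49.3. Erythroid (16.5 against 2.22 and 3.15), B cell (23.2 against 10.8 and 11) and T cell sums (25.7 against 16.1 and 16.5) were also higher. Mature neutrophil markers summed to 2680, below 9420 and 6230, and the macrophage sum (90.5) lay between the others (99.6 and 79). Among the DMSO libraries of *D/F* that of the second mouse held the lowest value for 28 of the 40 genes, whereas it was lowest for 23.7% of all genes. Without this mouse 13 of the 40 genes were called lower and 3 higher in *D/F*, against 10.8% and 13.8% of all genes. *Gmps*, *Cad*, *Uck2*, *Aprt*, *Nme1*, *Rrm2* and *Dck* gained a call and *Dhodh* lost it (adjusted p = 0.0538). Without the first or the third *D/F* mouse no gene of the whole table was called (lowest adjusted p 0.0771 and 0.172), and 11 of the 40 genes had an unadjusted p under 0.05 each time, where 16% and 15% of all genes did.

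Defining markers of c-Kit-enriched myeloid blasts were present, with *Mpo* at 1163 to 3673 TPM and *Kit* at 50.5 to 148.8 TPM in the DMSO libraries, while *Cd79a*, *Ms4a1*, *Cd3e* and *Cd3g* were not among the genes of the table. Other lymphoid markers were present at low levels, with *Cd79b* at 10.4 to 22.8 TPM and *Cd3d* at 7.96 to 14.9. With CCS1477 the median summed TPM of the progenitor markers went from 8320 to 3310 in *D/F* and from 6180 to 2680 in *T/F*, and that of 4 macrophage markers from 90.5 to 34 and from 130 to 47.9. Megakaryocyte markers went from 49.3 to 26.2 and from 50 to 31.8, the 2 B cell markers from 11 to 5.26 and from 17.3 to 12.9, and mature neutrophil markers from 6230 to 6620 and from 5460 to 5130. That neutrophil sum is carried by *S100a8*, *S100a9* and *Ngp*. The means of *Camp* (154 to 44.8 TPM in *D/F*, 97.7 to 52.3 in *T/F*) and *Retnlg* (42.8 to 8.06 and 19.3 to 6.63) were lower with CCS1477. Those of *S100a8* and *Mmp9* were also lower in both genotypes, and those of *Ltf*, *Ngp* and *S100a9* higher. Erythroid markers went from 3.15 to 2.27 and from 14.7 to 8.18, and T cell markers from 16.5 to 14.5 and from 16.9 to 14.5. The part of these shifts in the changes below was not tested. Neutrophil granule markers were also high, with a summed TPM of 2280 to 9420 in the DMSO libraries. *Dnmt3a* did not separate the genotypes under DMSO (29.3 to 55.7 TPM in *D/F* and 39.9 to 53.9 in *T/F*), and *Tet2* was at 38.3 to 43.4 TPM in *D/F* and 30.0 to 35.8 in *T/F* (adjusted p = 0.803). TPM sums all exons of a gene, so a floxed allele that loses some exons need not lose its TPM. With CCS1477 the mean of *Myc*, which encodes a transcription factor with many targets in these pathways, fell in *D/F* from 378 to 19.2 TPM and in *T/F* from 268 to 23.8 (log2 fold changes -4.21 and -3.45). How much of any change below went with *Myc* was not tested. In such bulk libraries, fewer cells of a type and less RNA per cell cannot be told apart.

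Under DMSO the 40 genes were well expressed. The median of their mean TPM over the 6 DMSO libraries was 113, beside 17.6 over all genes. *Rrm2*, the small subunit of ribonucleotide reductase made in S phase, had the highest level (387 ± 114, SD, n = 6), followed by *Phgdh* (352 ± 60), *Shmt2* (265 ± 65.5), *Uck2* (251 ± 46.4) and *Paics* (243 ± 10.2), whose ranges overlapped from each to the next. *Rrm2b* had the lowest level, at 16.8 ± 1.32 TPM, and its highest library (18.9) just overlapped with the lowest of the next, *Psph* (18.8, mean 33.2 ± 8.91).

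The 6 genes of purine ring synthesis were all called lower in *T/F* (17.6% of all genes were). Of them 5 were called lower in *D/F* too, where 5.91% of all genes were called lower in both. Their summed TPM went from 812, 750 and 951 in the *D/F* DMSO libraries to 473, 414 and 583 with CCS1477, and from 899, 864 and 943 to 545, 528 and 567 in *T/F*. The groups did not overlap. Promoters from RefSeq (GRCm38.p6, 250 bases before to 50 after the start) were found for 37 of the 40 genes. *Pfas*, *Dhodh* and *Rrm2b* had none there and were not searched. The promoters found were searched for the E-box CACGTG, a palindrome bound by MYC and MAX among others. It was in the promoters of 6 of the 37 genes (16.2%), against 11.3% of 10622 table genes and 8.09% of 27025 genes with a promoter in the reference. Of these 6 genes 5 were called with CCS1477 in at least 1 genotype and 1 was not. In *T/F* alone 27 of the 40 genes were called lower and 5 higher (17.6% and 25.8% of all genes). The matching stretches of the promoters are shown with the E-box in capitals and 12 bases on either side:

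*Atic*, plus strand, chr1:71557137-71557166: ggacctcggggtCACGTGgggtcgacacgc

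*Paics*, plus strand, chr5:76951087-76951116: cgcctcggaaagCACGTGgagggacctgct

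*Impdh2*, plus strand, chr9:108560314-108560343: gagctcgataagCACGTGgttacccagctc

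*Dtymk*, minus strand, chr1:93802065-93802094: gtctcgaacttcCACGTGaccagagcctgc

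*Tyms*, minus strand, chr5:30073669-30073698: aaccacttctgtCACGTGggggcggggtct

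*Nme1*, minus strand, chr11:93968037-93968066: agcttgatacgcCACGTGggctcgcctttg

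*Nme1*, minus strand, second listed start, chr11:93968273-93968302: gctgcggggaacCACGTGaggccggggagc

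These 6 genes did not move together: *Atic*, *Dtymk*, *Nme1* and *Paics* fell in *T/F*, *Tyms* rose there, and *Impdh2* was not called. The ATF4 element TGATGNAA was in 1 promoter, that of *Prps1* (2.7%, against 2.98% of table genes), and the E2F elements TTTCGCGC and TTTGGCGC were in none of the 37 (against 1.69%). The motifs were searched on both strands. A match is a string of letters and not a measured binding site.

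*Gart*, whose protein catalyses 3 of the ring-building steps (chr16:91621186-91646952, minus strand, GRCm38), was measured at 138.8, 119.3 and 176.2 TPM in the *D/F* DMSO libraries (in the order of mouse 1, mouse 2 and mouse 3, kept throughout) and at 58.8, 40.02 and 79.5 with CCS1477. In *T/F* its TPM were 162, 150.3 and 165 with DMSO and 69.5, 68.8 and 68.2 with CCS1477. Every CCS1477 library lay below every DMSO library, and the log2 fold change was -1.31 (SE 0.29, adjusted p = 0.0367) in *D/F* and -1.20 (SE 0.06, adjusted p = 3.4e-04) in *T/F*. *Atic*, which closes the purine ring with a carbon from folate, went from 150.2, 124.2 and 180.2 to 65.1, 42.7 and 88.6 TPM in *D/F* and from 173.7, 169.6 and 173.1 to 84.6, 83.6 and 85.7 in *T/F*. Its changes, -1.24 (SE 0.30, adjusted p = 0.0449) and -1.02 (SE 0.05, adjusted p = 3.4e-04), were again free of overlap. With a pseudocount of 0.1 or with libraries rescaled to their median gene, the *D/F* calls of *Atic*, *Ppat* and *Dhodh* were lost at adjusted p between 0.0512 and 0.0577.

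*Ppat*, the committed step from PRPP, fell by 0.91 (SE 0.21, adjusted p = 0.0436) on the log2 scale in *D/F* and by 1.08 (SE 0.09, adjusted p = 7.5e-04) in *T/F*. The change ranged from -0.92 to -0.89 over the 3 *D/F* mice and from -1.12 to -1.04 over the 3 *T/F* mice. *Pfas* (-0.70 and -0.81) and *Adsl* (-0.85 and -0.79), which act between the entry and the closure of the ring, were called in both genotypes too. *Paics*, which does 2 steps of the ring, changed least of the 6. Its TPM were 231.9, 232.5 and 247.5 with DMSO and 192.5, 173.2 and 213.3 with CCS1477 in *D/F* (log2 fold change -0.30, SE 0.15, adjusted p = 0.226, and 0.0652 with the mouse as a block). In *T/F* they were 242.4, 245.9 and 259.1 with DMSO and 213.9, 211 and 225.1 with CCS1477 (-0.20, SE 0.06, adjusted p = 0.0455). That call was lost with quantile normalization (-0.09, adjusted p = 0.269) and in 1 fit of all 4 groups (-0.20, adjusted p = 0.165).

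*Paics* and *Ppat* are neighbours on chromosome 5, transcribed away from each other from starts that overlap by 271 bases between start sites, *Ppat* at chr5:76913249-76951578 on the minus strand and *Paics* at chr5:76951307-76967509 on the plus strand. The ratio of *Paics* to *Ppat* TPM was 2.99 to 4.03 in the *D/F* DMSO libraries and 4.86 to 5.78 with CCS1477, and 3.22 to 3.81 and 6.28 to 7 in *T/F*. It was higher with CCS1477 in all 6 mice, and the CCS1477 libraries lay above the DMSO libraries in each genotype (mean log2 change 0.76). This ratio is 1 of 7 that were chosen after the values were seen. Exact tests of them were run, and their p-values are left out because the choice of pairs bears on them, so the ratios are descriptions. Whether the authors' quantification used strand is not given in the sources used here, so reads from the overlapping ends may have been shared between both genes.

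**Figure D1:**
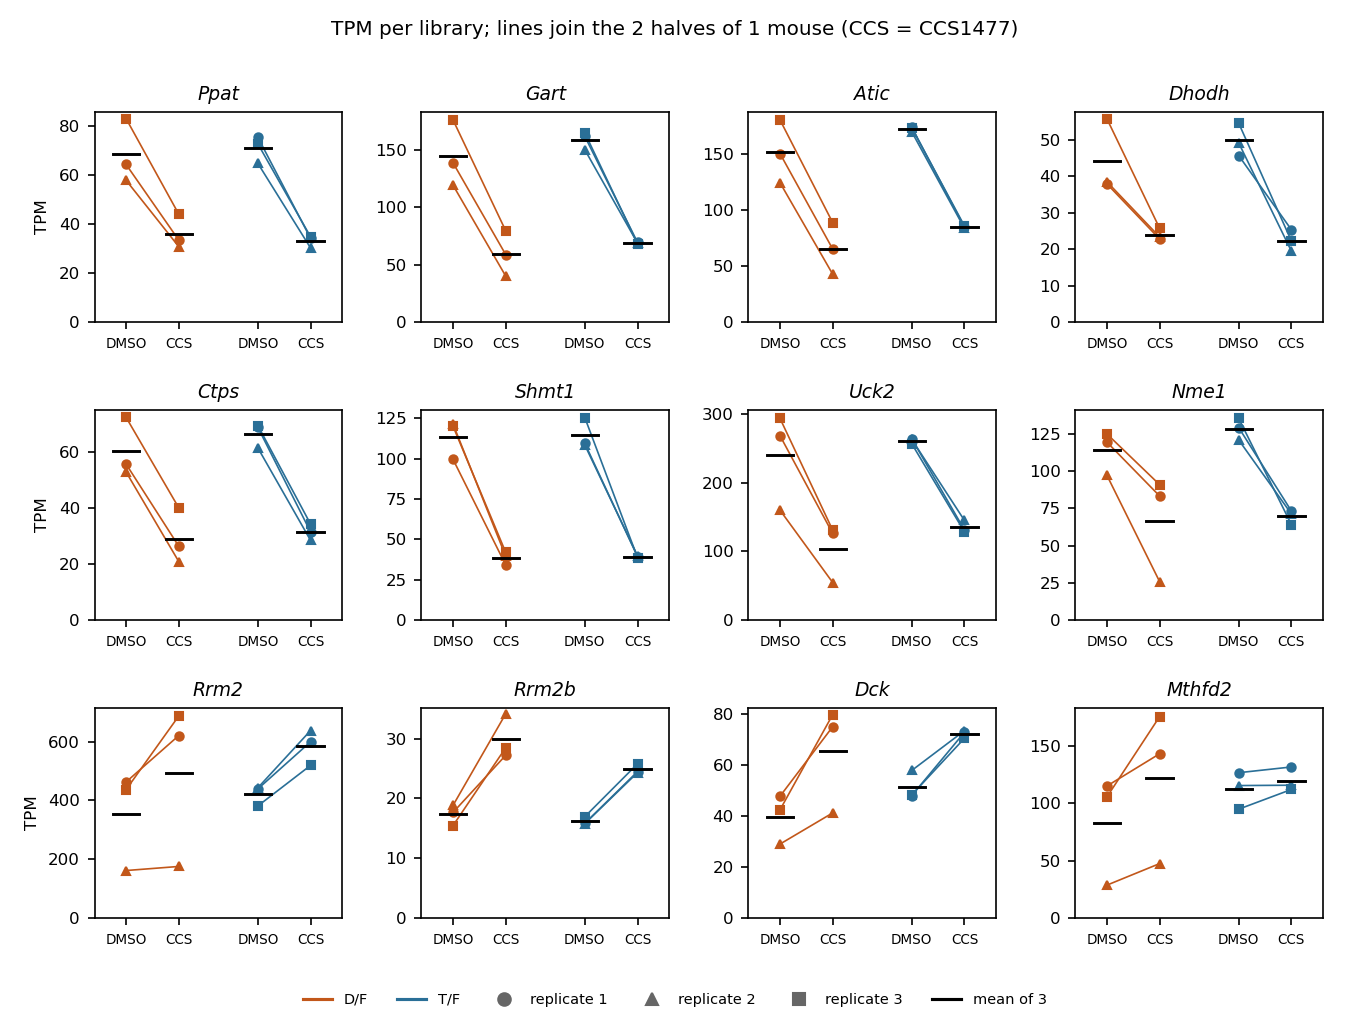
TPM (vertical axis, from 0) of 12 genes in each library, by genotype and treatment on the horizontal axis, with lines joining the DMSO and CCS1477 libraries of 1 mouse and black bars at the mean of 3. *Gart*, *Atic* and *Shmt1* fall in every mouse without overlap, *Rrm2b* and *Dck* rise in every mouse, and *D/F* mouse 2 (triangles) is the lowest *D/F* mouse for *Rrm2*, *Mthfd2*, *Uck2* and *Nme1*.

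In the AMP and GMP branch 3 of 4 genes were called lower in *T/F* and none in *D/F* (17.6% and 6.51% of all genes were). With the mouse as a block these counts were 4 and 2 (22.9% and 18%). *Gmps*, which makes GMP, and *Adss*, which starts the branch to AMP, were lower by 0.50 (adjusted p = 0.0587, and 0.0196 with the mouse as a block) and 0.44 (adjusted p = 0.0808, and 0.0218 with the block) in *D/F*. They fell by 0.47 (SE 0.07, adjusted p = 0.00301) and 0.52 (SE 0.06, adjusted p = 0.00194) in *T/F*. *Gmps* was narrow within groups, at 48.5, 45.6 and 47.9 TPM in *D/F* DMSO libraries and 31.97, 34.4 and 33.1 with CCS1477. *Impdh1* and *Impdh2* encode the isozymes of IMP dehydrogenase, which sets the rate of GMP synthesis. *Impdh1* fell in *T/F*, from 95.4, 90.0 and 95.7 to 72.1, 71.4 and 77.0 TPM (-0.35, SE 0.06, adjusted p = 0.00786), and in *D/F* its 141.7, 85.6 and 128.7 TPM with DMSO overlapped with 100.4, 83.1 and 100.5 with CCS1477 (-0.30, SE 0.23, adjusted p = 0.426, and 0.124 with the block).

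*Impdh2* was called in neither genotype. It was measured at 218.5, 171.8 and 251.4 TPM in *D/F* DMSO libraries and at 232.3, 218.9 and 263.9 in the same mice with CCS1477, higher in each of the 3 mice (log2 fold change 0.17, SE 0.19, adjusted p = 0.598). In *T/F* it went from 228.4, 212.5 and 227.1 to 206, 187.6 and 201.5 TPM, lower in each of the 3 mice (-0.17, SE 0.07, adjusted p = 0.0995, and 0.0465 with the block). The ratio of *Impdh2* to *Impdh1* was higher in all 6 mice, from 1.54 to 2.01 with DMSO to 2.31 to 2.64 with CCS1477 in *D/F* and from 2.36 to 2.40 to 2.62 to 2.86 in *T/F* (mean log2 change 0.33). The genes for PRPP synthetase, *Prps1* and *Prps2*, were lower in all 6 mice. They fell by 0.48 (SE 0.07, adjusted p = 0.00277) and 0.37 (SE 0.09, adjusted p = 0.0228) in *T/F*, and were lower by 0.63 each in *D/F* (adjusted p = 0.165 and 0.0593, and 0.0112 and 0.0303 with the block).

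Of the 5 genes of pyrimidine ring and CTP synthesis, 4 were called lower in *T/F* and 2 in *D/F* (17.6% and 6.51% of all genes were). With the mouse as a block 4 were called lower in each (22.9% and 18%). *Cad*, whose protein starts the pathway, was at 81.5, 68.3 and 99.2 TPM with DMSO and 51.8, 36.9 and 59.5 with CCS1477 in *D/F* (-0.75, SE 0.24, adjusted p = 0.0899, and 0.0097 with the block). The *T/F* libraries fell from 91.4, 84.7 and 96.3 to 46.8, 46.3 and 47.8 TPM (-0.93, SE 0.07, adjusted p = 5.5e-04). The groups were separate in both genotypes. *Dhodh*, the mitochondrial step of the pathway, fell from 37.9, 38.4 and 55.7 to 22.7, 23.3 and 25.7 TPM in *D/F* (-0.83, SE 0.19, adjusted p = 0.0431) and from 45.6, 49.1 and 54.5 to 25.3, 19.4 and 22.2 in *T/F* (-1.13, SE 0.12, adjusted p = 0.00128). *Umps*, which finishes UMP, fell by 0.94 (SE 0.20, adjusted p = 0.0352) in *D/F* and by 0.86 (SE 0.06, adjusted p = 5.0e-04) in *T/F*.

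CTP synthase has a pair of genes. *Ctps* went from 55.7, 52.9 and 72.4 to 26.3, 20.9 and 40.1 TPM in *D/F* (-1.06, SE 0.27, adjusted p = 0.0523, and 0.00858 with the block) and from 68.8, 61.5 and 69.5 to 31.5, 28.5 and 34.3 in *T/F* (-1.06, SE 0.09, adjusted p = 8.3e-04). *Ctps2* was at 59.5, 63.1 and 34.8 TPM with DMSO and 52.2, 75.2 and 51.7 with CCS1477 in *D/F*, and at 60.8, 51.9 and 43.9 and 55.9, 53.9 and 50.0 in *T/F*, with overlapping groups and no call. The ratio of *Ctps2* to *Ctps* was higher with CCS1477 in all 6 mice. In *T/F* it went from 0.632 to 0.883 with DMSO to 1.46 to 1.89 with CCS1477, and in *D/F* from 0.481 to 1.19 to 1.29 to 3.61 (mean log2 change 1.22).

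**Figure D2:**
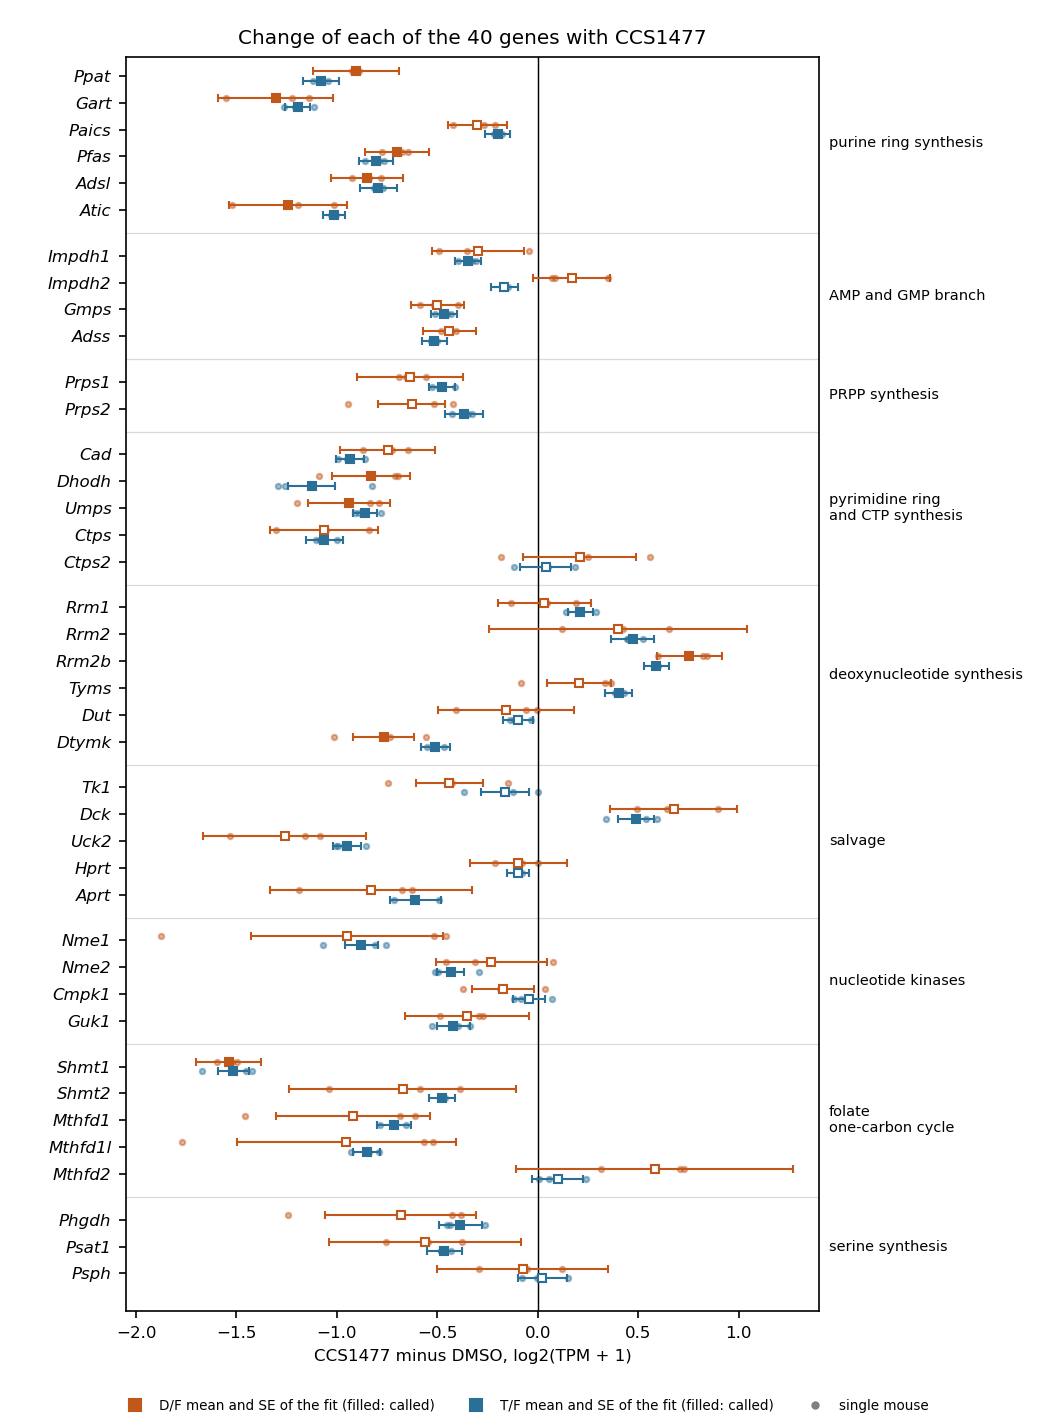
Difference between CCS1477 and DMSO on the log2(TPM + 1) scale (horizontal axis) for each of the 40 genes, grouped by role on the vertical axis, with squares for the mean of each genotype, bars for the SE of the limma fit, filled squares for genes called at an adjusted p under 0.05 and small points for single mice. The purine ring genes lie left of 0 in every mouse, while *Rrm2*, *Rrm2b*, *Dck* and *Mthfd2* lie right of 0 in all 6 mice, *Mthfd2* by only 0.0046 in *T/F* mouse 2.

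Counted by mouse, 28 of the 40 genes were lower with CCS1477 in all 6 mice, 4 were higher in all 6 (*Rrm2*, *Rrm2b*, *Dck* and *Mthfd2*) and 8 were mixed. These counts use the sign alone, and some changes were close to 0. Examples are *Mthfd2* (0.0046) and *Tk1* (-9.0e-04) in *T/F* mouse 2 and *Dut* (-0.0040) in *D/F* mouse 1. Of 15174 genes tested in both genotypes, 24.5% were lower and 32.3% higher in all 6 mice. By groups, 19 of the 40 genes had CCS1477 libraries below all DMSO libraries in *D/F* and 1 above, where the shares over all genes were 16.7% and 19.9%. In *T/F* these counts were 29 and 5, against 22.6% and 33.5%. The 18 genes without overlap in both genotypes (13.4% of all genes were lower in this way) were the 6 genes of the purine ring, *Gmps*, *Adss*, *Prps2*, *Cad*, *Dhodh*, *Umps*, *Ctps*, *Dtymk*, *Uck2*, *Nme1*, *Shmt1* and *Mthfd1*. Decreases above 2-fold were called for 3 of the 40 genes in *D/F* (*Gart*, *Atic* and *Shmt1*) and 6 in *T/F* (these with *Ppat*, *Dhodh* and *Ctps*), against 4.61% and 4.7% of all genes, and no increase was above 2-fold (2.67% and 2.63% of all genes were called higher in this way). *Gart*, *Atic* and *Shmt1* were called above 2-fold in both genotypes, as were 3% of all genes. The 2-fold threshold was set on the fitted change of called genes, and a change beyond 2-fold was not itself tested. In a fit of both genotypes with genotype as a covariate, 23 of the 40 genes were called lower and 3 higher (*Rrm2b*, *Dck* and *Tyms*), against 19.6% and 25.8% of 15583 genes. With the mouse as a block 28 were lower and 5 higher (*Rrm2* and *Mthfd2* in addition), against 25.9% and 34.5%.

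Among the 6 genes of deoxynucleotide synthesis, 4 were called higher and 1 lower in *T/F*, where 25.8% and 17.6% of all genes were. In *D/F* 1 was called higher and 1 lower (5.14% and 6.51% of all genes). *Rrm2b*, the small subunit of ribonucleotide reductase induced by p53 (chr15:37923952-37961318, minus strand, GRCm38), was at 17.7, 18.9 and 15.5 TPM with DMSO and 27.2, 34.2 and 28.5 with CCS1477 in *D/F* (0.75, SE 0.16, adjusted p = 0.0352). In *T/F* it rose from 15.8, 15.8 and 16.95 to 24.5, 24.3 and 25.8 TPM (0.59, SE 0.06, adjusted p = 0.00133). It was the only one of the 40 genes with CCS1477 libraries above all DMSO libraries in both genotypes, where 17.3% of all genes were. *Rrm2* rose in *T/F*, from 439.2, 443 and 381.3 to 599.7, 637.9 and 519.3 TPM (0.47, SE 0.11, adjusted p = 0.0154, and 0.554 in 1 fit of all 4 groups). In *D/F* it was measured at 462.9, 161.5 and 436.9 TPM with DMSO and 620.9, 175.4 and 687.7 with CCS1477. All 3 mice were higher, but the second mouse lay far below the others under both conditions (log2 fold change 0.40, SE 0.64, adjusted p = 0.723, 0.0804 with the block, and 0.0428 without that mouse). *Rrm1*, the large subunit, rose in *T/F* by 0.21 (SE 0.06, adjusted p = 0.0377). That call was lost with libraries rescaled (adjusted p = 0.155) and in 1 fit of all 4 groups (adjusted p = 0.415). In *D/F* the TPM of *Rrm1* were 162.7, 127.8 and 166.3 with DMSO and 167.9, 116.4 and 189.6 with CCS1477 (0.03, SE 0.23, adjusted p = 0.942).

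*Tyms*, which makes thymidylate with a carbon from folate, rose in *T/F* from 115.8, 108.7 and 115.6 to 152.6, 142.3 and 155.7 TPM (0.40, SE 0.07, adjusted p = 0.00526). In *D/F* it was higher in mice 1 and 3 and lower in mouse 2 (0.20, SE 0.16, adjusted p = 0.429). *Dtymk*, the kinase that acts on the product of *Tyms*, fell in both genotypes. Its TPM went from 128.8, 151.6 and 128.7 to 76.9, 74.7 and 87.3 in *D/F* (-0.77, SE 0.15, adjusted p = 0.0287) and from 137.6, 121.9 and 133.9 to 93.6, 87.9 and 93.6 in *T/F* (-0.51, SE 0.07, adjusted p = 0.00315). *Dut*, which removes dUTP, was not called in either genotype (-0.16, adjusted p = 0.80, and -0.10, adjusted p = 0.337).

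Salvage genes split. *Uck2*, the kinase for uridine and cytidine, went from 268.5, 160 and 293.7 to 126.1, 54.6 and 130.9 TPM in *D/F* (-1.26, SE 0.41, adjusted p = 0.0936, 0.00696 with the block, and 0.014 without mouse 2). The *T/F* values fell from 264.1, 263.1 and 256.8 to 131.2, 145.1 and 128.4 TPM (-0.95, SE 0.07, adjusted p = 5.4e-04). Every CCS1477 library lay below every DMSO library of its genotype. *Dck*, the kinase for deoxycytidine that also activates cytarabine, went the other way, from 47.7, 29.0 and 42.4 to 75.0, 41.2 and 79.7 TPM in *D/F* (0.68, SE 0.32, adjusted p = 0.206, 0.0173 with the block, and 0.025 without mouse 2). The rise in *T/F* was from 48.0, 57.8 and 48.2 to 72.8, 73.4 and 70.4 TPM (0.49, SE 0.09, adjusted p = 0.00766, and 0.18 in 1 fit of all 4 groups). *Aprt*, which salvages adenine, fell in *T/F* (-0.61, SE 0.13, adjusted p = 0.0114) and was lower in the 3 *D/F* mice (-0.83, SE 0.50, adjusted p = 0.317, and 0.0194 with the block). *Hprt*, which salvages hypoxanthine and guanine, and *Tk1*, the thymidine kinase of dividing cells, were called in neither genotype. The *D/F* libraries of *Tk1* did not overlap (-0.44, SE 0.17, adjusted p = 0.136, 0.0748 with the block, and -0.29 without mouse 2), and those of *T/F* did (-0.16, adjusted p = 0.307). *Hprt* was at 207.3, 206.8 and 213.7 TPM with DMSO and 192.3, 195.9 and 198.6 with CCS1477 in *T/F* (-0.10, SE 0.06, adjusted p = 0.208), and its fitted direction turned under quantile normalization in both genotypes (0.05 in each).

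Nucleoside diphosphate kinase is encoded by *Nme1* and *Nme2*, which lie side by side on chromosome 11. A readthrough gene that spans both, *Gm20390*, is also listed in the table, so the division of reads among them is uncertain. *Nme1* was at 119.5, 97.2 and 125 TPM with DMSO and 83.3, 25.8 and 90.9 with CCS1477 in *D/F*, where mouse 2 had the lowest value of the 12 libraries (-0.95, SE 0.48, adjusted p = 0.237, 0.0857 with the block, and 0.0484 without mouse 2, at -0.48). The *T/F* mice went from 129.3, 121 and 135.5 to 73.3, 71.3 and 64.1 TPM (-0.88, SE 0.08, adjusted p = 9.2e-04). In 1 fit of all 4 groups the *T/F* calls of *Nme1*, *Nme2* and *Guk1* were lost (adjusted p = 0.118, 0.166 and 0.234). *Nme2* fell less in *T/F* (-0.43, SE 0.07, adjusted p = 0.00437) and overlapped in *D/F* (-0.23, SE 0.28, adjusted p = 0.621, and -0.12 without mouse 2). The ratio of *Nme2* to *Nme1* was higher in all 6 mice (mean log2 change 0.59), by 0.41 without *D/F* mouse 2. *Guk1*, which phosphorylates GMP, fell in *T/F* (-0.42, SE 0.08, adjusted p = 0.00944) and was lower in *D/F* (-0.35, SE 0.31, adjusted p = 0.487, and 0.0482 with the block), and *Cmpk1*, which phosphorylates UMP and CMP, was called in neither (-0.17 in *D/F* and -0.04 in *T/F*).

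**Figure D3:**
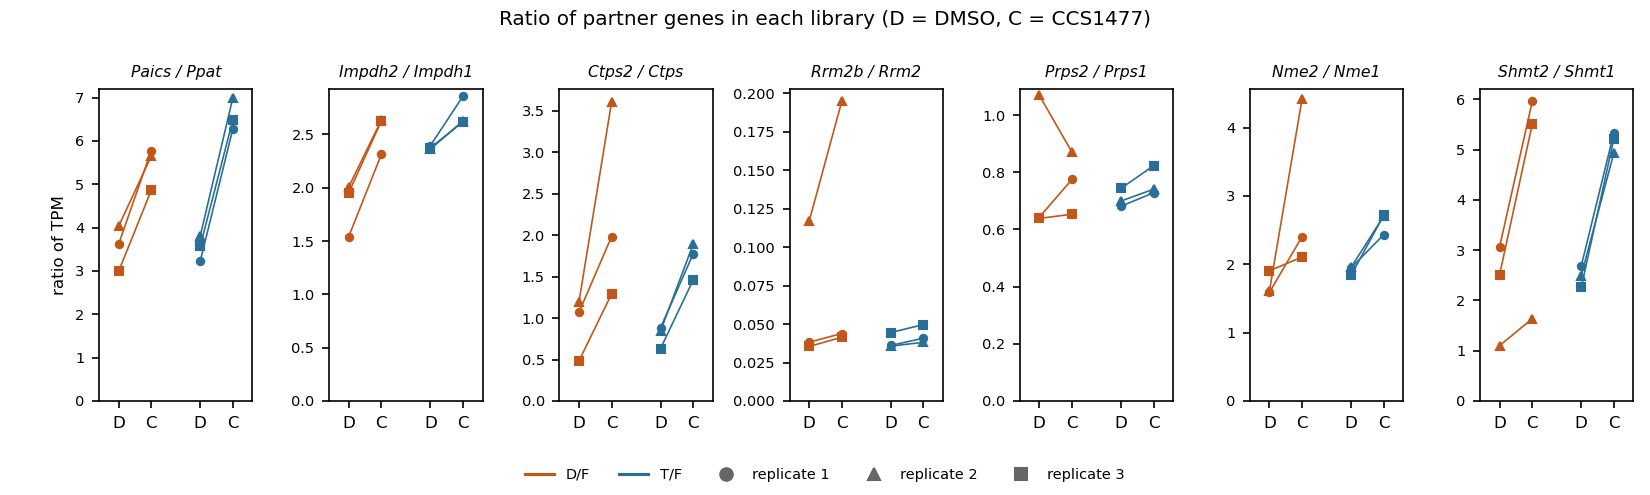
Ratio of the TPM of partner genes (vertical axes, from 0) in each library, with DMSO (D) and CCS1477 (C) on the horizontal axis and lines joining the libraries of 1 mouse. The ratios of *Paics* to *Ppat*, *Impdh2* to *Impdh1*, *Ctps2* to *Ctps* and *Nme2* to *Nme1* are higher with CCS1477 in all 6 mice without overlap between treatments of 1 genotype, while *Rrm2b* to *Rrm2* and *Prps2* to *Prps1* overlap.

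The largest decrease among the 40 genes was in the folate cycle. *Shmt1*, the cytosolic enzyme that moves a carbon from serine to folate (chr11:60788104-60811718, minus strand, GRCm38), was measured at 99.6, 121.4 and 120.1 TPM with DMSO and 34.1, 39.5 and 41.9 with CCS1477 in *D/F* (-1.54, SE 0.16, adjusted p = 0.00709). In *T/F* it fell from 109.5, 108.5 and 125.5 to 39.3, 39.8 and 38.7 TPM (-1.52, SE 0.08, adjusted p = 3.3e-04). The change lay between -1.67 and -1.42 in the 6 mice. *Shmt2*, the mitochondrial isozyme, changed less, from 305.5, 133.8 and 302.1 to 203, 64.6 and 230.7 TPM in *D/F* (-0.67, SE 0.57, adjusted p = 0.468, and 0.0349 with the block) and from 294.2, 270.8 and 283.8 to 209.8, 196.6 and 202.1 in *T/F* (-0.48, SE 0.06, adjusted p = 0.00262). The ratio of *Shmt2* to *Shmt1* was higher in all 6 mice (mean log2 change 0.97), with overlapping groups in *D/F*. The ratios of *Rrm2b* to *Rrm2* (0.27) and *Prps2* to *Prps1* (0.06) overlapped between treatments in both genotypes, and were higher with CCS1477 in 6 and 5 of the 6 mice.

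*Mthfd1*, the cytosolic enzyme that charges folate with formate, fell in *T/F* from 88.7, 74.4 and 80.3 to 51.0, 46.9 and 48.7 TPM (-0.72, SE 0.08, adjusted p = 0.00183). In *D/F* it was at 66.8, 57.7 and 89.2 TPM with DMSO and 43.4, 20.4 and 55.0 with CCS1477 (-0.92, SE 0.38, adjusted p = 0.164, and 0.031 with the block). *Mthfd1l*, which releases formate from mitochondria, fell in *T/F* (-0.85, SE 0.07, adjusted p = 6.8e-04) and in *D/F* was at 98.4, 58.4 and 88.2 TPM with DMSO and 68.2, 16.4 and 59.2 with CCS1477 (-0.95, SE 0.54, adjusted p = 0.29, 0.0651 with the block, and -0.55 without mouse 2). *Mthfd2*, a mitochondrial enzyme that acts before *Mthfd1l*, was called in neither genotype. Its TPM were 115, 28.6 and 105.5 with DMSO and 143.1, 47.4 and 175.5 with CCS1477 in *D/F*, higher in each mouse with the second far below the others (0.58, SE 0.69, adjusted p = 0.617, and 0.0283 with the block). In *T/F* they were 126.6, 115.4 and 94.8 and 131.6, 115.7 and 112 (0.10, SE 0.13, adjusted p = 0.567).

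In serine synthesis, *Phgdh*, the entry enzyme, fell in *T/F* from 404.3, 334.6 and 425.7 to 297.9, 278.7 and 310.7 TPM (-0.39, SE 0.11, adjusted p = 0.0325, and 0.0816 with quantile normalization). *Psat1*, the second enzyme, fell there from 229.7, 205.6 and 200.4 to 164.4, 151.9 and 143.3 (-0.47, SE 0.09, adjusted p = 0.00787). Both calls were lost in 1 fit of all 4 groups (adjusted p = 0.391 and 0.415). In *D/F* both were lower in all 3 mice, with log2 fold changes of -0.68 (SE 0.37, adjusted p = 0.273, 0.0652 with the block, and -0.40 without mouse 2) and -0.56 (SE 0.48, adjusted p = 0.475, and 0.0246 with the block). *Psph*, which releases serine, was mixed over the mice and not called (-0.08 and 0.02).

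The genotypes were compared within each treatment. Under DMSO none of the 40 genes was called by limma between *T/F* and *D/F*, none had an unadjusted p under 0.05 (6.15% of all genes did), and 0.0328% of 15265 genes were called. The values of 4 genes were higher in all *T/F* than in all *D/F* libraries (*Adss*, *Rrm1*, *Dck* and *Cmpk1*), where 5.17% of all genes were. *Dck* was at 48.0, 57.8 and 48.2 TPM in *T/F* and 47.7, 29.0 and 42.4 in *D/F* (0.39, adjusted p = 0.896). The 95% intervals of these differences were between 0.502 and 2.57 log2 units wide, so that 37 of the 40 excluded a difference of 2-fold and those of *Rrm2*, *Shmt2* and *Mthfd2* did not.

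With CCS1477 none of the 40 genes was called between the genotypes (0.0329% of all genes were), and 3 had an unadjusted p under 0.05, where 10.8% of all genes did: *Impdh1* (-0.36 in *T/F* relative to *D/F*), *Tk1* (0.37) and *Cmpk1* (0.35), with adjusted p of 0.38, 0.341 and 0.409. Without 1 library the count of 3 moved to between 0 (without *T/F* mouse 2, 5.68% of all genes) and 9 (without *D/F* mouse 2, 15.8%). The difference between the responses of both genotypes was tested as an interaction. None of the 40 genes was called, nor was any of the 15583 genes tested (0%). None of the 40 had an unadjusted p under 0.05, where 4.23% of all genes did, and 2 did with the mouse as a block, where 14.7% of all genes did (*Impdh2*, -0.335 with a 95% interval from -0.592 to -0.0779, and *Mthfd2*, -0.48 with an interval from -0.84 to -0.129). The interval excluded a difference of 2-fold between the responses for 29 of the 40 genes, and for 39 with the block.

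**Figure D4:**
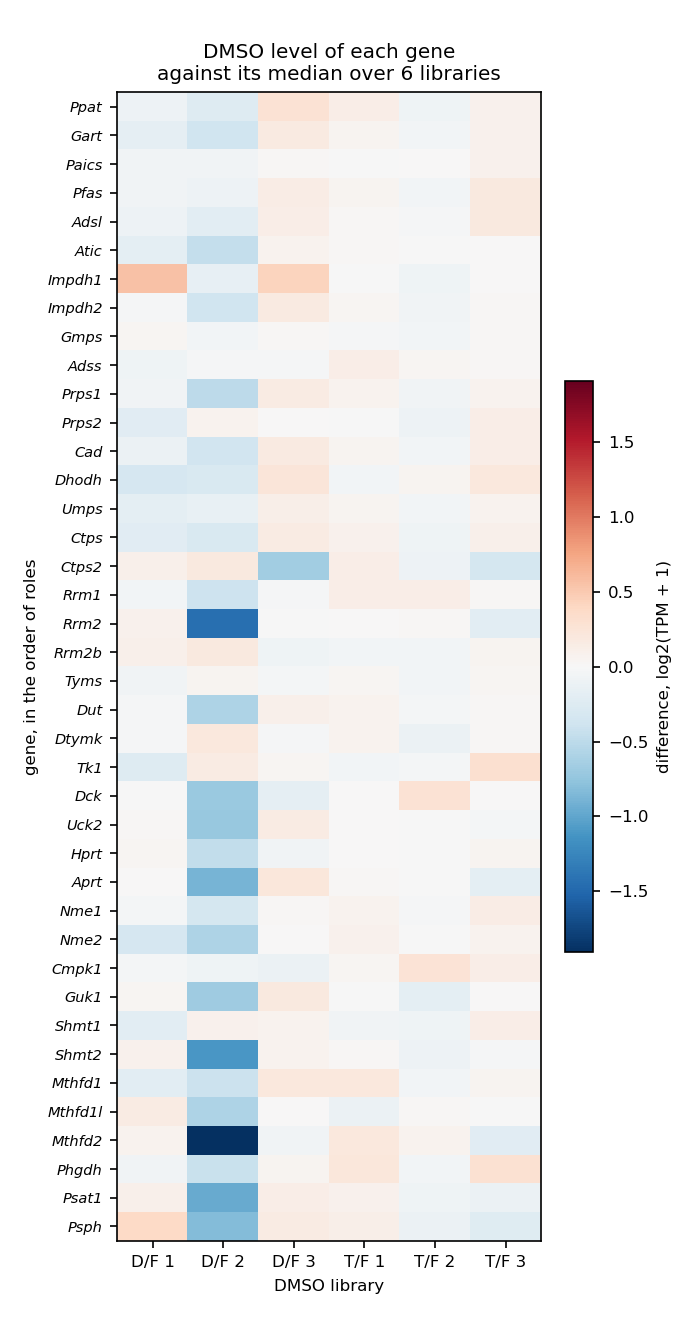
Difference of each gene's log2(TPM + 1) from its median over the 6 DMSO libraries (color), with libraries on the horizontal axis and the 40 genes in the order of roles on the vertical axis. The second *D/F* library holds the lowest of the 6 values for 27 of the 40 genes (18.1% of all genes), with *Mthfd2* and *Rrm2* farthest below.

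The second *D/F* mouse differed from the other *D/F* mice unevenly over the 40 genes. Under DMSO its TPM was 0.26 of the mean of the others for *Mthfd2*, 0.359 for *Rrm2*, 0.44 for *Shmt2*, 0.455 for *Psph* and 0.472 for *Psat1*. It was close to the others for *Paics* (0.97), *Cmpk1* (1.00) and *Adss* (1.02) and above them for *Ctps2* (1.34). With CCS1477 it was lowest for 33 of the 40 genes (28.2% of all genes), and *Mthfd1l* (0.257), *Rrm2* (0.268) and *Nme1* (0.296) were farthest below. The part of its other marker levels in these differences was not tested.

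A wider list of 57 further genes of nucleotide and folate metabolism in the table was read beside the 40. In *D/F* 12 were called lower and 1 higher (6.51% and 5.14% of all genes were), or 19 and 6 with the mouse as a block (18% and 21.4%), and in *T/F* 22 lower and 11 higher (17.6% and 25.8%), with median log2 fold changes of -0.13 and -0.11. Those that fell most in both genotypes were transporters and enzymes of deamination. *Dctd*, which deaminates dCMP toward thymidylate, went from means of 54.1 to 8.24 TPM in *D/F* and 50.3 to 9.02 in *T/F* (-2.58 and -2.35). *Slc19a1*, the reduced folate carrier that also takes up methotrexate, fell from 73.3 to 14.9 and from 63.5 to 13.7 TPM (-2.23 and -2.13). *Slc29a2*, a nucleoside transporter (-2.01 and -1.98), *Ampd2*, which deaminates AMP (-1.65 and -1.22), and *Gda*, which deaminates guanine (-2.06 and -1.61), were called as well.

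Genes of the cell cycle outside the 40 were listed beside them. Of 32 S phase genes, none was called lower and 1 higher (*Slbp*, which binds histone mRNA, 0.89) in *D/F*, and 5 lower and 7 higher in *T/F* (*Slbp* 0.67), where 6.51%, 5.14%, 17.6% and 25.8% of all genes were, in that order. Of 24 genes of G2 and M phase, 3 were called higher in *D/F* (*Cenpf*, *Mki67* and *Cenpa*), or 12 with the mouse as a block, and 19 in *T/F* with or without it, where 5.14%, 21.4% and, in *T/F*, 25.8% and 31.2% of all genes were. None was called lower in either. The mean of *Mki67*, a marker of cycling cells, was 219.2 TPM with DMSO and 371.3 with CCS1477 in *D/F* (log2 fold change 0.75), while for *T/F* the means were 219.3 and 414.3 (0.92). The G2 and M phase list had a median log2 fold change of 0.31 (*D/F*) and 0.45 (*T/F*), and the S phase list one of -0.11 and -0.07. Of 25 targets of ATF4, a stress factor that also drives serine and mitochondrial folate genes, none was called in *D/F*, or 5 lower and 4 higher with the mouse as a block (18% and 21.4% of all genes), and 7 were called lower and 2 higher in *T/F* (17.6% and 25.8%), or 9 and 5 with the block (22.9% and 31.2%). How the changes of *Rrm2*, *Tyms*, *Tk1* and *Dtymk*, whose expression follows the cell cycle, went with these lists was not tested.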

How the data were processed

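The 40 genes, their grouping by role and the other gene lists were chosen with earlier results of these data known, so counts over them describe the lists and are not independent evidence. The authors deposited gene-level TPM for 12 libraries, linear and not pooled. The submitters' processing notes name kallisto and mm10, the study's methods name AltAnalyze, and settings are not given in the sources used here. The labels name both ribosome depletion and a stranded mRNA kit. Genes whose TPM did not reach 2.00 in any library are not in the table, and libraries summed to between 914204 and 931697 TPM. The study's methods give a single read number per sample, but TPM keep no read numbers, so the depth reached by each library is unknown. No count model was used, and the spread between 3 mice is the precision of each value. Symbols and positions of 15252 identifiers came from GENCODE vM21 (GRCm38), and promoters from RefSeq (GRCm38.p6).

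Values were put on the log2(TPM + 1) scale. A gene entered a test when the mean TPM of 1 or more of its groups reached 1. The test was limma (3.58.1, R 4.3.3), moderated by eBayes with no trend, and two-sided p-values were adjusted over all such genes by the Benjamini-Hochberg method. The pseudocount of 1 understates changes of low genes. Each genotype was fitted alone, and the scripts were tested on simulated data. Every gene of the set was named by rule, with up to 5 genes each way of the wider list and up to 3 of the other lists, by the smaller change among those called in both genotypes. A gene of the wider list that this rule names is not reported here. Labels give the mouse of each library, so CCS1477 and DMSO libraries of the same number come from the same mouse. Over 13313 genes their deviations from group means correlated at 0.607, 0.736 and 0.613 (*D/F*) and at 0.504, 0.469 and 0.592 (*T/F*), against at most 0.461 for different mice under different treatments. The mouse as a block was an alternative fit. The 7 ratios of TPM were chosen after the values were seen. Exact permutation and sign-flip tests of them were run and are not used as evidence.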

Additional observations from a re-analysis of the deposited data

Results flagged for a closer look

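*Impdh2* was higher with CCS1477 in all 3 *D/F* mice (changes of 0.09, 0.35 and 0.07 on the log2(TPM + 1) scale) and lower in all 3 *T/F* mice (-0.15, -0.18 and -0.17). Of 15174 genes tested in both genotypes, 0.712% showed this pattern and 1.36% the opposite one. The difference of the responses, *T/F* minus *D/F*, was -0.335 (SE 0.20, unadjusted p = 0.117, adjusted p = 1.00 by limma). With the block of mice these were 0.0188 and 0.265. The genotypes also differ in dose, and the part of the dose was not tested.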

How the results depend on the processing

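The depth reached by each library is unknown and 3 mice per genotype limit the precision. In *D/F*, where 9 genes were called lower and 1 higher, the counts were 3 and 0 above 2-fold, 21 and 3 with the replicate block (the mouse), 19 lower in 1 fit of all 4 groups (14.4% of all genes), 0 to 13 lower and 0 to 3 higher without 1 mouse (0 without mouse 1 or 3), and 20 and 3 with the replicate block and without mouse 2 (15.2% and 17.8%), which was added after seeing the data. With a pseudocount of 0.1 or with libraries rescaled, 6 were lower (5.99% and 7.81% of all genes). *Ppat* (adjusted p = 0.0535 and 0.0577), *Atic* (0.057 and 0.0559) and *Dhodh* (0.0512 and 0.0522) lost the call. The median of -0.59 was -0.663 to -0.466 without 1 mouse, and -0.47 without mouse 2 with the block. In *T/F*, where 27 were called lower and 5 higher, the counts were 6 and 0 above 2-fold, 13 and 2 in 1 fit of all 4 groups (10.5% and 13.8%), and 20 to 25 and 1 to 3 without 1 mouse. Leaving out mouse 1 gave 20 and 1 (10.1% and 12.7%), and over the 3 mice these shares were 9.47% to 14.5% and 11.5% to 19.2%. The fit of 4 groups ended 17 of the 32 *T/F* calls, with the same log2 fold changes. These were *Paics*, *Impdh1*, *Prps1*, *Prps2*, *Rrm1*, *Rrm2*, *Dck*, *Uck2*, *Aprt*, *Nme1*, *Nme2*, *Guk1*, *Shmt2*, *Mthfd1*, *Mthfd1l*, *Phgdh* and *Psat1*. Their adjusted p lay between 0.0518 (*Uck2*) and 0.554 (*Rrm2*). The median of -0.47 was -0.52 with libraries rescaled to their median gene and -0.41 with quantile normalization. Over both genotypes 26 genes were called, 23 lower and 3 higher (19.6% and 25.8% of all genes). Above 2-fold 5 were called lower and 0 higher, where 888 and 483 of 15583 genes were. The comparisons between genotypes and the difference of responses gave 0 of 40 genes under every alternative run. No called gene of the set turned its direction. Rescaling turned the fitted direction of *Rrm1* in *D/F* and of *Ctps2* and *Psph* in *T/F*, and quantile normalization that of *Hprt* in both genotypes and of *Dut* and *Cmpk1* in *T/F*, all without a call there. The causes of these shifts were not tested.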
